A study of Sus scrofa with 6 samples.

Results

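The collagen and laminin genes of the lung were followed in pigs 24 h after extended partial hepatectomy (ePHx), a resection of 70% of the liver. Members were taken from the main-category probe sets of the array by gene symbol: a COL name with a type and a chain number, a laminin alpha, beta or gamma chain, the nidogens NID1 and NID2, the lysyl oxidases LOX, LOXL1 and LOXL2, and the hydroxylases PLOD1, PLOD2 and P4HA1. Of 11696 genes on the table with 1 symbol, 31 fit this choice, which comprised 23 collagens, 4 laminin chains, 1 nidogen (NID2) and 3 enzymes (LOX, PLOD2 and P4HA1). Each gene was represented by its probe set of highest mean signal. A further 10 probe sets, described in the files as collagen or laminin chains but listed under other symbols, are given separately.

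Lung tissue came from 6 adult male German landrace pigs, 1 array per animal, all of them resected. The 3 control animals received vehicle (Ringer solution), and the 3 MSC-treated animals received porcine bone marrow mesenchymal stromal cells (pBM-MSC) that had been differentiated towards hepatocytes in culture and were given through a central vein. Lungs of unoperated or sham-operated animals were not analysed here, so the comparison answers how the cell treatment, not the resection, went along with lung gene expression. All values are log2 RMA signals, on which a difference of 1 is a doubling, and are listed for animals 1, 2 and 3 of a group in that order.

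Fibrillar collagens are the tension-bearing ropes of connective tissue. In the lung they lie around airways and vessels and in the alveolar septa, and are made mainly by fibroblasts and smooth muscle cells. Collagen IV, laminins and nidogens build the basement membranes on which alveolar epithelium and capillary endothelium rest. Collagen chains are hydroxylated on proline and lysine in the endoplasmic reticulum, fold into trimers with the help of dedicated chaperones, are trimmed at their ends after secretion and are then crosslinked by lysyl oxidases.

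The tissue label fitted the signals of lung epithelium. SFTPC, the surfactant protein of alveolar type 2 cells, averaged 12.45, and AGER, a marker of alveolar type 1 cells, averaged 10.07. The arrays correlated with each other at 0.963 to 0.989 across all genes with 1 symbol. In the second deposited table the names of 3 arrays carried the letters b-T, whose meaning no label gives and which are called the processing mark here. Matched by identical values at all 27558 probe sets, the marked arrays were those of control animals 1 and 3 and of MSC-treated animal 2, and the unmarked arrays those of control animal 2 and MSC-treated animals 1 and 3. Because the mark crosses the treatment, each treatment difference is given where needed with the mark as a covariate. Marked and unmarked arrays were also compared with each other.

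In whole tissue, fewer cells of a type and less RNA per cell cannot be told apart. Of the 31 members, 13 had a mean signal of at least 8 and 4 had one under 5 (COL9A1, COL10A1, COL19A1 and COL28A1), where the antigenomic background probe sets averaged 3.88 to 4.24 per array. Signals of different probe sets depend on their probes and were not ranked against each other. The highest value of a member lay on control arrays 1, 2 and 3 in 1, 6 and 8 members and on MSC-treated arrays 1, 2 and 3 in 2, 1 and 13. The lowest value lay on the control arrays in 8, 6 and 1 members and on the MSC-treated arrays in 3, 11 and 2. Both groups thus held highs and lows, and MSC-treated animals 3 and 2 had the most of each.

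**Figure D1:**
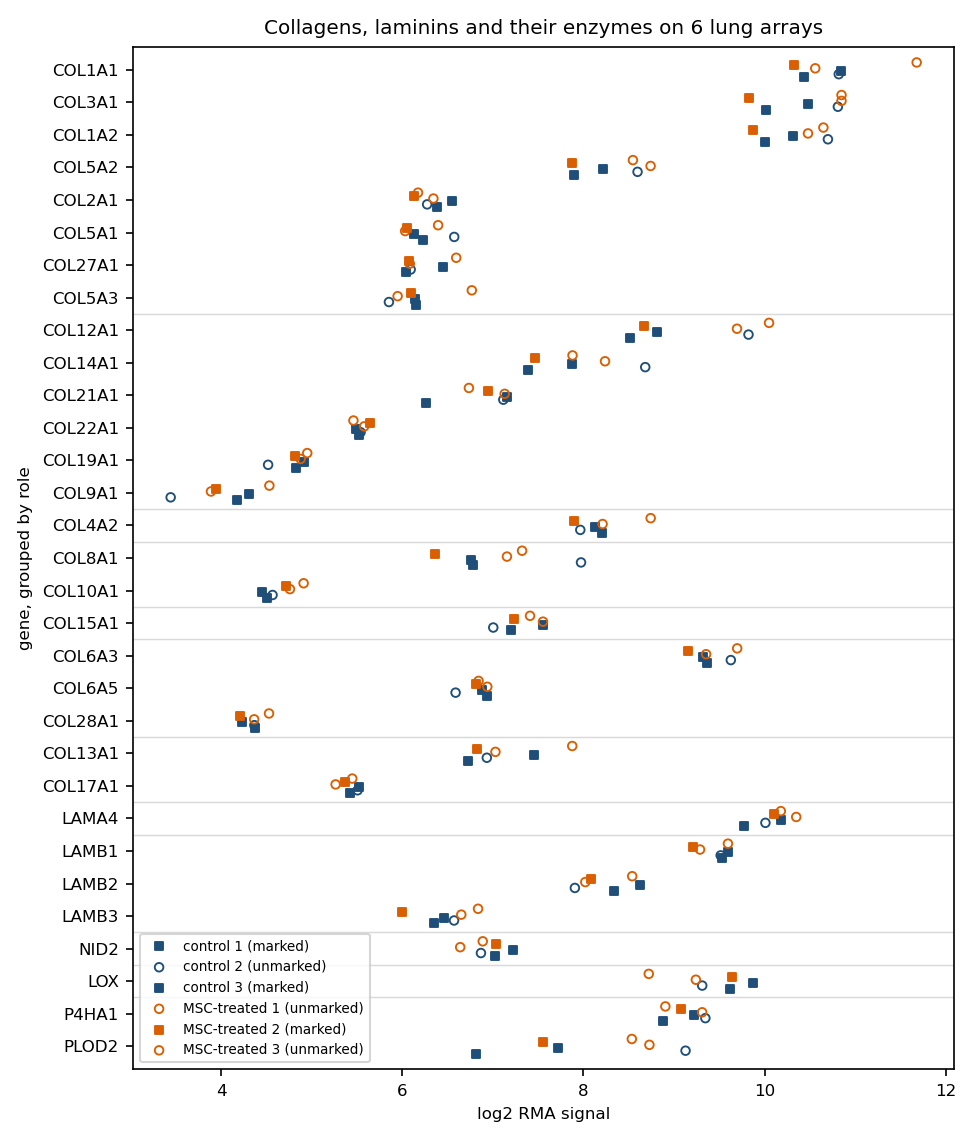
The log2 RMA signal (x axis) of each of the 31 members (rows, grouped by role) is shown for all 6 arrays, with blue for control and orange for MSC-treated animals, filled squares for marked and open circles for unmarked arrays. Blue and orange symbols are mixed in nearly every row, whereas for COL12A1, COL8A1 and PLOD2 the filled squares lie to the left of all open circles.

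MSC-treated lungs did not differ from control lungs in any member at the thresholds of the study, an unadjusted p under 0.05 together with a difference of 0.5 or more on the log2 scale in either direction. Among all genes 0.658% were higher and 1.21% lower at these thresholds (77 and 142 genes), and 0 passed a Benjamini-Hochberg adjusted p of 0.05 in limma, with 321 at an unadjusted p under 0.05. In the family 0 of 31 had an unadjusted p under 0.05, and the lowest was 0.090. The log2 fold changes ran from -0.40 for LOX to 0.42 for COL12A1, 19 of them positive and 12 negative. Their median was 0.05, against -0.003 over all genes. With the mark as a covariate the median was -0.01.

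The 95% confidence interval of the log2 fold change stayed within a doubling or a halving (-1 to 1) for 27 of the 31 members, and within -0.5 to 0.5 for 6. The remaining 4 were COL12A1, COL8A1, LOX and PLOD2. The typical interval reached 0.54 to either side, close to the 0.47 of all genes.

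**Figure D2:**
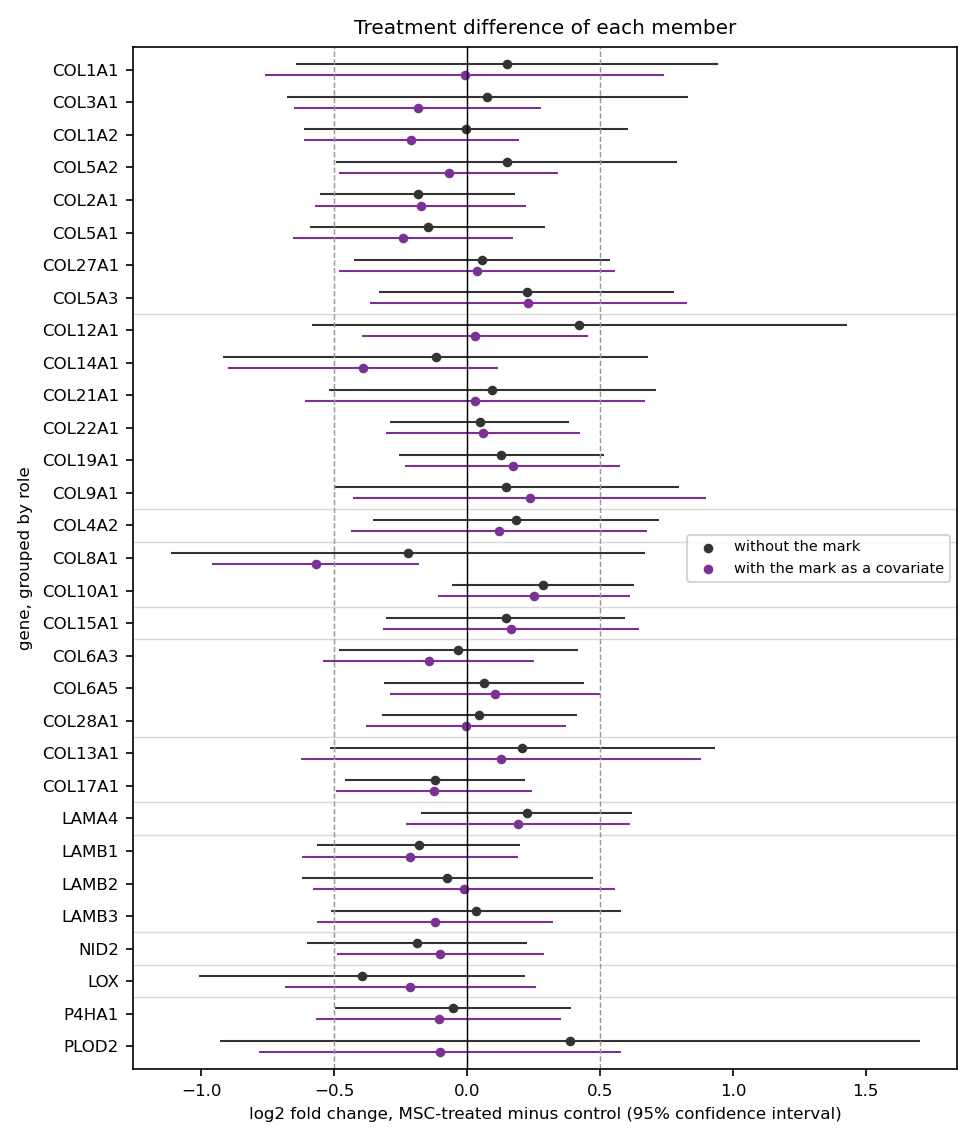
The log2 fold change of MSC-treated over control lungs (x axis) is drawn with its 95% confidence interval for each member (rows), in black without and in purple with the processing mark as a covariate, and dashed lines stand at -0.5 and 0.5. All black intervals include 0, and among the purple ones only that of COL8A1 does not.

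The major fibrillar chains varied more among animals of a group than between the groups. COL1A1 and COL1A2 encode the chains of collagen I, the main collagen of the interstitium. COL1A2 was at 10.00, 10.70 and 10.32 in control and at 10.48, 9.88 and 10.65 in MSC-treated lungs. The groups overlapped over almost their whole range, with means of 10.34 ± 0.35 and 10.34 ± 0.41 (SD, n = 3 each) and a log2 fold change of -0.004 (SE 0.26, 95% confidence interval -0.61 to 0.61). COL1A1 was at 10.44, 10.82 and 10.85 in control and at 10.56, 10.33 and 11.68 in MSC-treated lungs. MSC-treated animal 3 alone lay above the controls, and the log2 fold change was 0.15 (-0.64 to 0.95). The COL1A1 probe set holds only 5 probes. A second probe set of 20 probes, which the file lists under a locus number that RefSeq names COL1A1, was at 11.34, 11.53 and 11.90 in control and at 11.31, 11.38 and 12.06 in MSC-treated lungs, a difference of -0.01. Both probe sets were highest in MSC-treated animal 3.

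COL3A1, the chain of collagen III, which is laid down with collagen I in distensible tissue, was at 10.02, 10.81 and 10.48 in control lungs. In MSC-treated lungs it was at 10.85, 9.83 and 10.85, so that this group held both the lowest and the highest values of the gene. The log2 fold change was 0.08 (-0.68 to 0.83). COL5A2, a chain of collagen V, which nucleates collagen I fibrils and sets their diameter, is annotated on Sscrofa10.2 at chromosome 15, 104122882 to 104175081, on the minus strand. Its values of 7.90, 8.60 and 8.22 in control lungs and of 8.74, 7.87 and 8.55 in MSC-treated lungs overlapped (log2 fold change 0.15, -0.49 to 0.79). The other fibrillar members, COL5A1, COL5A3, COL27A1 and the cartilage chain COL2A1, differed by -0.19 to 0.22. Over all 8 fibrillar members the median was 0.07, and 0 passed the thresholds.

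The FACIT collagens, which sit on the surface of fibrils and link them to their surroundings, held the largest positive difference of the family. COL12A1, whose transcript is annotated on Sscrofa10.2 at chromosome 1, 101726688 to 101890065, on the plus strand, was at 8.52, 9.82 and 8.81 in control and at 9.70, 8.67 and 10.05 in MSC-treated lungs. Control animal 2 was high and MSC-treated animal 2 low, against the direction of the group means of 9.05 ± 0.68 and 9.47 ± 0.72 (SD, n = 3 each). The difference of 0.42 (SE 0.43, -0.58 to 1.43) was within the spread between animals, with an adjusted p of 1 in limma. With the mark as a covariate it shrank to 0.03 (-0.40 to 0.45). Within the marked arrays it was 0.01 and within the unmarked arrays 0.05. COL14A1 was at 7.39, 8.68 and 7.87 in control and at 8.24, 7.47 and 7.88 in MSC-treated lungs. The groups overlapped, at a log2 fold change of -0.12 (-0.92 to 0.68). The other FACIT members COL9A1, COL19A1, COL21A1 and COL22A1 differed by 0.05 to 0.15.

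Of the network-forming collagens, COL10A1 was the 1 member of the family whose groups did not overlap, and COL8A1 the 1 member past the thresholds with the mark as a covariate. COL10A1, the collagen of hypertrophic cartilage, was at 4.51, 4.57 and 4.45 in control and at 4.76, 4.72 and 4.91 in MSC-treated lungs. All 3 MSC-treated values lay above all 3 control values, which 3.57% of all genes did, while 3.84% lay wholly below. The share in the family was 1 of 31, or 3.23%, near that background, with 0 members wholly below. The shift was small, 0.29 (SE 0.15, -0.06 to 0.63), and the signal was little above that of the background probe sets. Of the 6 chondrocyte markers measured, all had negative log2 fold changes, with a median of -0.09 and 0 past the thresholds.

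COL8A1, a short-chain collagen of vessel walls and sites of repair, was at 6.78, 7.97 and 6.76 in control and at 7.16, 6.36 and 7.32 in MSC-treated lungs. The groups overlapped and the log2 fold change was -0.22 (SE 0.38, -1.12 to 0.67). With the mark as a covariate COL8A1 was lower in MSC-treated lungs by the study's thresholds, at -0.57 (-0.96 to -0.18), with an adjusted p of 0.99 in limma. In that fit 1.24% of all genes were lower and 1.67% higher, and in the family 1 of 31 (3.23%) was lower and 0 higher. Within the marked arrays the difference was -0.41 and within the unmarked arrays -0.73. A second, dimmer COL8A1 probe set of 8 probes had a difference of 0.35 between the treatment groups without regard to the mark. On the marked arrays it was at 3.15 and 2.61 in control and at 2.51 in MSC-treated animals, under the background average. On the unmarked arrays it was at 5.93 in control and at 5.20 and 5.03 in MSC-treated animals. On the unmarked arrays, with 1 control among them, it was thus lower in MSC-treated animals, as was the first probe set. The order of its marked values, all under the background, allows no statement.

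Basement membrane components differed little between the treatments. COL4A2, 1 of the chains of collagen IV, the sheet-forming collagen of every basement membrane, was at 8.21, 7.97 and 8.12 in control and at 8.21, 7.89 and 8.74 in MSC-treated lungs. Here too MSC-treated animal 3 was the high value, and the log2 fold change was 0.18 (-0.36 to 0.72). COL15A1, a collagen of the zone beneath the basement membrane, differed by 0.15 (-0.30 to 0.59).

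The laminins assemble from 1 alpha, 1 beta and 1 gamma chain. LAMA4, an alpha chain of vascular basement membranes (Sscrofa10.2 chromosome 1, 87740894 to 87808805, minus strand), was at 9.77, 10.01 and 10.18 in control lungs and at 10.35, 10.10 and 10.18 in MSC-treated lungs. Control animal 3 reached the MSC-treated values, and the log2 fold change was 0.22 (-0.17 to 0.62). LAMB1, the widespread beta chain (Sscrofa10.2 chromosome 9, 118439608 to 118514521, minus strand), was at 9.53, 9.52 and 9.60 in control and at 9.29, 9.20 and 9.60 in MSC-treated lungs. MSC-treated animal 3 overlapped the very tight controls, and the log2 fold change was -0.18 (-0.56 to 0.20). LAMB2, the beta chain of mature vascular and synaptic basement membranes, was at 8.34, 7.91 and 8.62 in control and at 8.02, 8.08 and 8.54 in MSC-treated lungs, a difference of -0.08 (-0.62 to 0.47). Thus the vascular alpha chain and its beta partners had differences of opposite sign, none of which passed the thresholds, and each 95% confidence interval included 0.

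LAMB3, the beta chain of the epithelial laminin that anchors basal cells, was at 6.35, 6.57 and 6.46 in control and at 6.65, 5.99 and 6.84 in MSC-treated lungs. MSC-treated animals held both extremes, and the log2 fold change was 0.03 (-0.51 to 0.58). COL17A1, the transmembrane collagen of the same anchoring complex, differed by -0.12 (-0.46 to 0.22). Of the 2 airway basal cell markers measured, KRT5 was lower in MSC-treated lungs (-0.94, adjusted p of 1) and KRT15 was at -0.15, while LAMB3 and COL17A1 were not past the thresholds. The part of basal cell content in these values was not tested. NID2, a nidogen that bridges laminin and collagen IV, differed by -0.19 (-0.60 to 0.22). The median of the 4 laminin chains and NID2 was -0.08.

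No beaded filament or transmembrane collagen passed the thresholds. COL6A3, the long chain of collagen VI, a microfibril at the border of cells and matrix, was at 9.36, 9.63 and 9.32 in control and at 9.36, 9.15 and 9.70 in MSC-treated lungs. The values overlapped, and the interval of the log2 fold change of -0.03 ran from -0.48 to 0.42. COL6A5 and COL28A1 had intervals within -0.5 to 0.5 as well. COL13A1, a transmembrane collagen of cell-matrix contacts, was at 6.72, 6.93 and 7.45 in control and at 7.03, 6.82 and 7.88 in MSC-treated lungs, with the highest value in MSC-treated animal 3.

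Of the 3 enzymes, LOX and PLOD2 had differences that depended on single arrays. LOX, the lysyl oxidase that crosslinks collagen and elastin, was at 9.61, 9.31 and 9.87 in control and at 9.24, 9.65 and 8.72 in MSC-treated lungs. MSC-treated animal 2 lay within the control range and the other MSC-treated animals lay below it. The log2 fold change was -0.40 (SE 0.26, -1.01 to 0.22). Without MSC-treated replicate 2, the 1 marked array of its group, it was -0.62 and past the thresholds. With the mark as a covariate it was -0.21 (-0.69 to 0.26). PLOD2, which hydroxylates the lysines of the collagen telopeptides, was at 6.81, 9.13 and 7.72 in control and at 8.73, 7.56 and 8.54 in MSC-treated lungs. Control values spanned more than the MSC-treated ones, and the log2 fold change was 0.39 (SE 0.57, -0.93 to 1.70). Without control replicate 2, the 1 unmarked control, it was 1.01 and past the thresholds, and with the mark as a covariate it was -0.10. P4HA1, the catalytic subunit of prolyl 4-hydroxylase, was at 8.88, 9.35 and 9.22 in control and at 9.31, 9.08 and 8.90 in MSC-treated lungs (log2 fold change -0.05, -0.50 to 0.39).

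The largest differences in the family lay between the marked and the unmarked arrays. This comparison, chosen after the values had been seen, was fitted with the treatment in the model. Of the 31 members 7 were lower on the marked arrays at the same thresholds, a share of 22.6%, where 5.12% of all genes were. By contrast 1 member (3.23%) was higher, where 8.59% of all genes were. The median difference of the members was -0.15, against -0.01 over all genes, and 21 of 31 were negative. At an adjusted p of 0.05 in limma 2 members passed, COL12A1 and COL8A1, while 1.03% of all genes did. Since each array is a different animal, the mark, and whatever it stands for, cannot be told apart from differences among these 6 pigs.

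**Figure D3:**
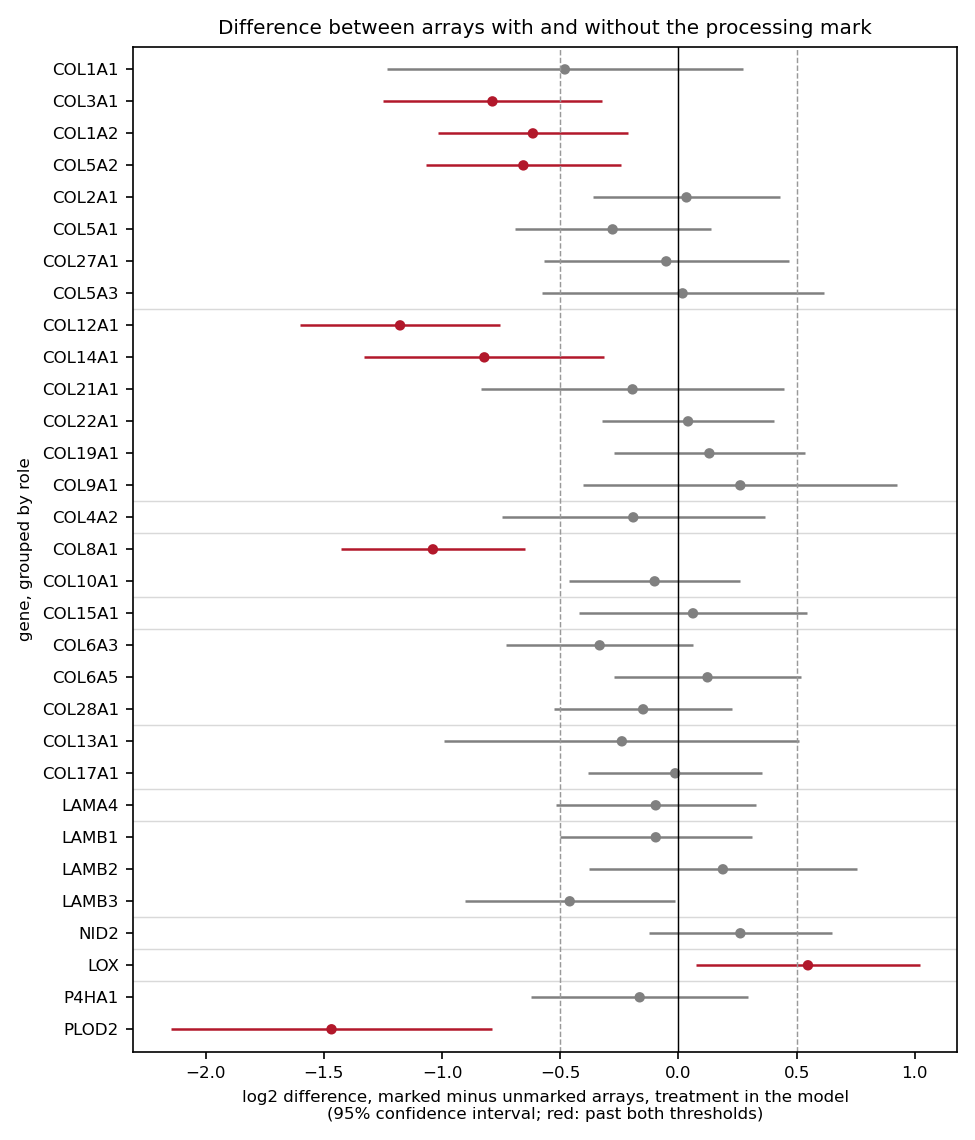
The log2 difference between marked and unmarked arrays, with the treatment in the model, is shown on the x axis with its 95% confidence interval for each member (rows), in red where it is past both thresholds, and dashed lines stand at -0.5 and 0.5. The 7 members to the left in red are fibril and fibril-surface collagens, COL8A1 and PLOD2, LOX is the 1 red member to the right, and all laminin chains are grey.

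PLOD2 had the largest difference between marked and unmarked arrays. It was at 6.81, 7.72 and 7.56 on the marked arrays of control animals 1 and 3 and MSC-treated animal 2, and at 9.13, 8.73 and 8.54 on the unmarked ones. No value overlapped, the difference was -1.47 (SE 0.29, -2.15 to -0.79, adjusted p = 0.065), and the unmarked level was 2.77-fold the marked one. The difference was -1.86 within the control group and -1.07 within the MSC-treated group. COL12A1 averaged 8.67 on the marked and 9.86 on the unmarked arrays, with no overlap. Its difference of -1.18 (SE 0.18, -1.60 to -0.75, adjusted p = 0.039) was nearly the same within control animals (-1.16) and within MSC-treated animals (-1.20). COL8A1 averaged 6.64 on the marked and 7.49 on the unmarked arrays. Its difference was -1.04 (-1.43 to -0.65, adjusted p = 0.041), with -1.20 within control and -0.88 within MSC-treated animals. Its second probe set differed in the same direction, with 3.15, 2.61 and 2.51 on the marked and 5.93, 5.20 and 5.03 on the unmarked arrays.

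The chains of the collagen I and III fibrils and their surface partners went the same way by smaller amounts. COL3A1 differed by -0.79 (-1.25 to -0.32), COL14A1 by -0.82 (-1.33 to -0.31), COL5A2 by -0.66 (-1.07 to -0.24) and COL1A2 by -0.62 (-1.02 to -0.21). In each of these genes all 3 marked values lay below all 3 unmarked values, but the adjusted p was between 0.11 and 0.14. In COL14A1 the gap was narrow, with the highest marked value at 7.87 and the lowest unmarked one at 7.88. COL1A1 was at -0.48 (-1.23 to 0.27), and its longer second probe set at -0.11, so the partner chain in collagen I did not pass. COL5A1 (-0.28), COL6A3 (-0.33) and COL1A1 had negative values without passing. By plain means, without the treatment in the model, a dimmer COL5A1 probe set differed by -0.31. The dimmer COL6A3 probe sets differed by -0.58 and -0.16. In the COL5A1 one and in the COL6A3 one at -0.58, every marked value lay below every unmarked value. COL2A1, COL5A3 and COL27A1 lay between -0.05 and 0.03.

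Counted by overlap, 8 members (25.8%) were lower on every marked than on every unmarked array, against 10.7% of all genes. The 7 members above were joined by LAMB3 (-0.46, -0.90 to -0.02), which missed the fold threshold. Conversely 2 members were higher on every marked array, where 12.2% of all genes were. These were LOX, with 9.61, 9.87 and 9.65 on the marked and 9.31, 9.24 and 8.72 on the unmarked arrays (0.55, 0.08 to 1.02, adjusted p = 0.23), and NID2 (0.26, -0.13 to 0.65). LOX and PLOD2, which act on the same lysine residues at different steps, thus differed between the marked and unmarked arrays in opposite directions. LAMA4, LAMB1 and LAMB2 lay between -0.10 and 0.19.

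**Figure D4:**
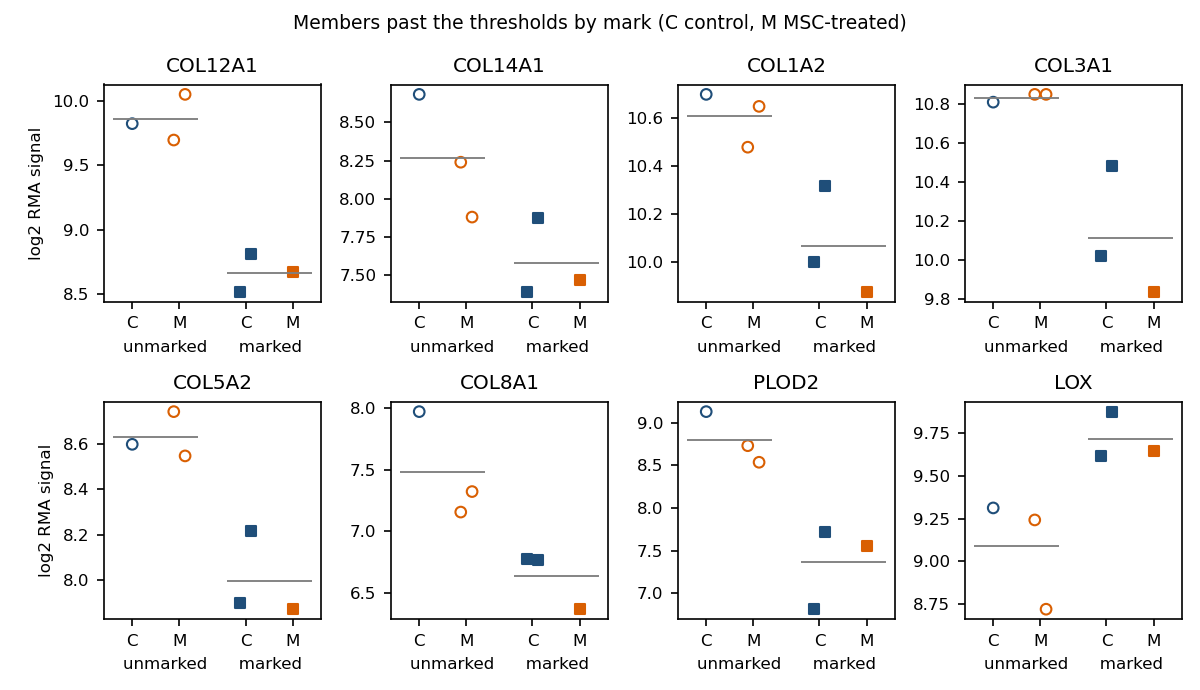
Log2 RMA signals (y axes, which differ between panels and do not start at 0) of the 8 members past the thresholds between marked and unmarked arrays are drawn per animal, with control (C) and MSC-treated (M) animals side by side and grey lines at the mean of the 3 unmarked and of the 3 marked arrays. In 7 panels the marked squares lie below the unmarked circles for control and MSC-treated animals alike, and in that of LOX they lie higher.

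Single arrays mattered for part of this pattern. Without any 1 array COL12A1, COL8A1 and PLOD2 were lower on the marked arrays at the thresholds each time. The count of lower members was 7 without each of the other arrays and 4 without MSC-treated replicate 2, the 1 marked array of its group, when COL1A2, COL3A1 and COL5A2 were no longer past the thresholds. The share of all genes that were lower changed as well, from 2.45% without control replicate 2 to 9.13% without MSC-treated replicate 3, and was 5.32% without MSC-treated replicate 2. Without control replicate 2 COL14A1 was lost and LAMB3 gained. LOX stayed past the thresholds only without control replicate 1 and without MSC-treated replicate 1, and COL9A1 was higher without MSC-treated replicate 2. COL12A1 and COL8A1 missed the adjusted p without each array other than MSC-treated replicate 3. Without that array 1330 genes passed it, among them COL12A1, COL14A1, COL8A1 and PLOD2. Of the other arrays, leaving out control replicate 1 gave 14 genes and leaving out any of the rest 0.

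Some genes that process collagen were also lower on the marked arrays. Of 20 measured genes of collagen biosynthesis other than the members, 1 was lower and 0 higher in MSC-treated lungs, with a median of 0.00, while 6 were lower, 0 higher and 14 not past the thresholds on the marked arrays, with a median of -0.15. Over all genes 5.12% were lower and 8.59% higher there, as above. SERPINH1, the collagen chaperone HSP47, was at 9.39, 10.01 and 9.69 on the marked and at 10.77, 10.50 and 11.05 on the unmarked arrays. The difference was -1.08 (-1.63 to -0.52, adjusted p = 0.083). The prolyl isomerases FKBP14 (-0.83) and FKBP10 (-0.52) of the endoplasmic reticulum were lower too, as were SEC23A (-0.64), a subunit of the coat that carries procollagen out of it, TMEM38B (-0.69), an ion channel of its membrane, and LEPREL1 (-0.56), a prolyl 3-hydroxylase. Without each single array in turn SERPINH1 was lower in all 6 fits, FKBP14 in 5 and FKBP10 in 4, and the other 3 genes in 2 or 3.

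PCOLCE2, an enhancer of the protease that trims procollagen ends, was the 1 gene of this list to pass between the treatments. It was at 7.12, 7.30 and 7.27 in control and at 6.48, 6.49 and 6.45 in MSC-treated lungs. Every MSC-treated value lay below every control value, and the log2 fold change was -0.76 (SE 0.15, adjusted p of 1). It stayed between -0.82 and -0.73 without each array, and the PCOLCE2 difference by the mark was -0.04. Of all genes 3.84% lay wholly below the controls and 1.21% were lower at the thresholds.

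The remaining matrix lists showed 0 genes past the thresholds between the treatments. By the mark, 5.12% of all genes were lower and 8.59% higher. Of 9 elastic fibre genes 4 were lower on the marked arrays and 0 higher, with a list median of -0.33. The 4 were FBN2 (-1.26), MFAP5 (-0.69), MFAP2 (-0.67) and EMILIN1 (-0.50), all microfibril components or their partners. FBN2 was near the background probe sets (3.88 to 4.24), at 4.31, 3.59 and 4.24 on the marked arrays. Of 7 small leucine-rich proteoglycans, which regulate fibril assembly, ASPN was lower (-1.33) and PRELP higher (2.18, adjusted p = 0.042). Among 7 collagen and laminin receptors the collagen-binding integrin chains ITGA2 (-0.64) and ITGA11 (-0.58) were lower, and of 5 other basement membrane components FREM1 was higher (0.90). The 6 collagen-degrading proteases had a median of -0.39 between the treatments and 0 past the thresholds. In that list the interstitial collagenase MMP1 was at 9.40 in control animal 1 and between 3.73 and 5.06 in the other 5 animals, so its log2 fold change of -2.24 rested on 1 lung.

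Cell type markers differed between the marked and unmarked arrays as well. The summed level of a list is given as the mean signal of its measured markers on an array. For 3 of 8 fibroblast markers measured (DCN, LUM and THY1) it was 9.64 to 9.86 on marked and 9.64 to 10.00 on unmarked arrays. Of these THY1 was lower on the marked arrays (-0.70), while DCN, which like LUM is also in the proteoglycan list, was at 0.44. For 4 of 7 smooth muscle and myofibroblast markers it was 8.55 to 8.87 and 8.56 to 9.36, with TAGLN lower (-0.64). Leukocyte markers (6 of 8 measured) were at 9.10 to 9.46 on marked and 8.71 to 8.82 on unmarked arrays. Of them 5 were higher at the thresholds, where 8.59% of all genes were. The remaining marker, CD79A, went the other way (-0.40), with every marked value below every unmarked one. Endothelial markers (5 of 9 measured) were at 9.88 to 10.01 and 9.30 to 9.57, with VWF and TEK higher and CLDN5 at -0.24. No marker of these 4 lists had a mean signal under 5. Their part in the collagen differences was not tested.

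Between the treatments these 4 lists had 0 markers past the thresholds, and the fibroblast level was 9.67 to 10.00 in control and 9.64 to 9.80 in MSC-treated lungs. Erythroid markers (4 of 6 measured) were at 6.20 to 7.45 in control and 5.48 to 6.05 in MSC-treated lungs, and 2 of them were lower at the thresholds. Neutrophil markers (5 of 7 measured) were at 7.95 to 9.73 in control and 7.59 to 8.0 in MSC-treated lungs. All 5 had negative log2 fold changes, with a median of -0.79, and S100A12 was lower at the thresholds (-0.99). Pericyte markers (5 of 6 measured) were at 7.56 to 7.89 in control and 7.27 to 7.63 in MSC-treated lungs, with a median of -0.33. RGS5 was lower at the thresholds (-0.60), and CSPG4 was at 0.16. RGS5 and ABCC9 (-0.33) lay wholly below the controls, as did 3.84% of all genes. The part of these cell types in the treatment differences of the members was not tested. The 3 mesothelial markers measured all had mean signals under 5.

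The 10 collagen and laminin probe sets listed under other symbols also had small differences between the treatments. These ran from -0.17 for the laminin gamma-2-like chain, the usual partner of LAMB3, to 0.30 for the gamma-3-like chain, and 0 passed the thresholds between the treatments or by the mark. LAMC1, the gamma chain that LAMA4 and LAMB1 most often join, was at 9.83, 9.49 and 9.91 in control and at 9.60, 9.54 and 9.80 in MSC-treated lungs, a difference of -0.09. The gamma-2-like chain differed by -0.44 between marked and unmarked arrays, beside the -0.46 of LAMB3. COL4A6 and the COL11A1 (listed as COLL11A1), COL11A2, COL8A2, COL16A1-like and COL23A1 probe sets differed by -0.15 to 0.11 between the treatments.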

How the data were processed

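The authors deposited log2 signals from RMA (background correction, quantile normalization, probe summarization) in Affymetrix Expression Console 1.4 according to the submitters' processing notes. Quantile normalization would hide a change shared by most genes. A ComBat batch correction named in the methods is not part of these values. The same values are in 2 tables; 6 signal columns of the second match no label and served only to link the mark. From the 27558 probe sets, 8434 of other categories, 214 with several symbols and 6110 with none were left out. Genes were kept whatever their signal, and 3 members had more than 1 probe set.

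Groups were compared with limma 3.58.1 (lmFit, eBayes) in R 4.3.3, with Benjamini-Hochberg adjustment over 11696 genes, without and with the mark as a covariate. The code was tested on simulated data. The number of arrays limits the precision. Each limma p-value sets a difference against the spread between animals, moderated over all genes. Without the mark as a covariate, that spread includes any difference by the mark. Members, gene lists and tests were chosen with earlier results of these data known. Members were named by role, with every value for those past the thresholds, not overlapping, brightest or partners in a trimer. Of each pathway list, at most 3 genes per comparison were to be named, a number exceeded for the mark, where names were chosen after the values were seen. Annotation positions are those of Sscrofa10.2 transcripts given for 16 members. Alternatives were median centring, a renewed quantile normalization, a minimum mean signal of 5, averaged probe sets, trended and robust variance, array weights, the methods' t-test (fold above 2.0), a replicate block, and fits without each array.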

Additional observations from a re-analysis of the deposited data

How the results depend on the processing

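The 31 members stayed on the same side of the thresholds between the treatments under all alternatives except 3 values, COL8A1 with the mark as a covariate (-0.57), LOX without MSC-treated replicate 2 (-0.62) and PLOD2 without control replicate 2 (1.01). Hence 1 member in place of 0 was past the thresholds with the mark, and 0 to 1 without single arrays. The sign changed in at least 1 setting for 19 members. Genes past the thresholds, 219 in all, numbered 340 with the mark as a covariate, 2 by the methods' t-test with a fold change above 2.0, and 181 to 609 without single arrays (470 without control replicate 2 and 609 without MSC-treated replicate 2). With probe sets averaged per gene 1 gene passed an adjusted p, in place of 0. Members whose groups did not overlap numbered 2 after median centring (COL10A1 and, by a small margin, COL17A1) and 2 to 6 without single arrays, where groups of fewer arrays overlap less readily. The median of the members was -0.09 to 0.14 without single arrays, -0.15 within the marked and 0.05 within the unmarked arrays, that of the collagens -0.059 (without MSC-treated replicate 3) to 0.16, -0.16 within the marked and 0.05 within the unmarked arrays. That of the laminins and NID2 was -0.21 to 0.03, -0.36 within the marked and 0.17 within the unmarked arrays. That of the enzymes was -0.19 to 0.05, 0.02 within the marked and -0.33 within the unmarked arrays. The cause of these changes was not tested. The replicate numbers were not taken to pair the animals. Same-numbered deviations correlated at -0.40, -0.48 and 0.05. Each such pair joined a marked and an unmarked array, so these correlations cannot decide whether the numbers pair animals. The replicate block gave 166 genes past the thresholds and 0 members. The 2 deposited tables hold the same values and were not run separately. With 3 arrays a group, members near the background signal and those with wide intervals, PLOD2 above all, allow no statement on small changes.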
